A study of Mus musculus with 9 samples.

Results

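The Toll-like receptor genes measured in mouse nigral tissue were Tlr1, Tlr2, Tlr3, Tlr4, Tlr6, Tlr7, Tlr8, Tlr9 and Tlr13, and they are described together with Myd88, the adaptor through which most of these receptors signal. These 10 genes were chosen by name from the 55450 genes of the count files, and all 10 were among the 20892 genes with enough counts to be tested. RNA was sequenced from dissected nigral tissue of male mice, with 3 libraries in each of 3 groups, 5 weeks after a lentiviral vector was injected into the substantia nigra. The CTR libraries came from CX3CR1-CreERT2 mice that received a Cre-dependent control vector, given as GFP in the labels and as destabilized GFP in the methods. The CX3 libraries came from CX3-Cre mice (the same CX3CR1-CreERT2 line) that received the vector under study, and the DAT libraries came from DAT-Cre mice that received that same vector. In the first line Cre is driven by the Cx3cr1 gene, which microglia and other myeloid cells express, and in the second by the gene of the dopamine transporter. Tamoxifen, which activates CreERT2, was given on 4 days and is described for CX3CR1-CreERT2 mice only. CX3 and CTR thus differed in the vector, CX3 and DAT in the Cre line and tamoxifen, and DAT and CTR in all of these, so that the parts of the last difference cannot be told apart. The age at injection was 8 weeks in the account of the experiments, while the methods list mice of 9 weeks at purchase. Whether a library came from 1 animal or from several was not stated, so p-values measure the spread between libraries, which may be technical. Levels of 141 immunoglobulin variable genes were compared between libraries by Spearman correlation. Within a group it was 0.989 to 0.992 in CTR, 0.93 to 0.95 in CX3 and 0.76 to 0.87 in DAT. Between libraries of different groups it was 0.21 to 0.49. Whether libraries of a group came from the same animals or the same RNA was not tested.

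Toll-like receptors are membrane proteins of innate immunity that bind molecules typical of microbes or released by damaged cells. Tlr1, Tlr2, Tlr4 and Tlr6 act at the cell surface, where Tlr2 pairs with Tlr1 or Tlr6 to bind lipoproteins and Tlr4 binds lipopolysaccharide. Tlr3, Tlr7, Tlr8, Tlr9 and Tlr13 act in endosomes and bind nucleic acids. In brain, microglia express most of them, and astrocytes also express Tlr3. Binding recruits Myd88, or the adaptor encoded by Ticam1 for Tlr3, and leads to activation of NF-kappaB and interferon regulatory factors.

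Libraries held 21592817 to 39475428 reads counted on genes. Values are given as CPM, counts scaled to the TMM-normalized library size. A floor of 3 counts corresponded to 0.0779 to 0.151 CPM and covers counting error only. Of the strand-specific counts, 49.8% to 49.9% lay on the reverse strand, so reads of a gene and of an overlapping gene on the other strand could not be told apart. Between libraries of a group, the median squared difference in counts over genes was 1.44 to 4.81 times that of random sampling, against 7.00 to 27.1 times between groups. DAT B, the smallest library, was the farthest from its group, and leaving it out left the counts of members called in DAT against CTR and CX3 at the same numbers. The labelled tissue was checked with dopaminergic neuron markers, which were present in every library, with summed levels of 833 to 841 CPM in CTR, 1015 to 1031 in CX3 and 643 to 659 in DAT.

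In CX3, Tlr2, Tlr3, Tlr7 and Tlr13 were lower than in CTR, and in DAT these 4 and Tlr1, Tlr4, Tlr6 and Myd88 were lower. Tlr7 and Tlr2 fell furthest in CX3, Tlr8 was the 1 member called higher there, and Tlr9 was at a mean of 4.02 to 4.24 CPM in every group. The 10 genes together summed to 144 to 150.2 CPM in CTR, 106 to 112 in CX3 and 61.8 to 70.6 in DAT. The groups did not overlap in this sum, and each gene's own values follow by the place where its receptor acts.

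**Figure D1:**
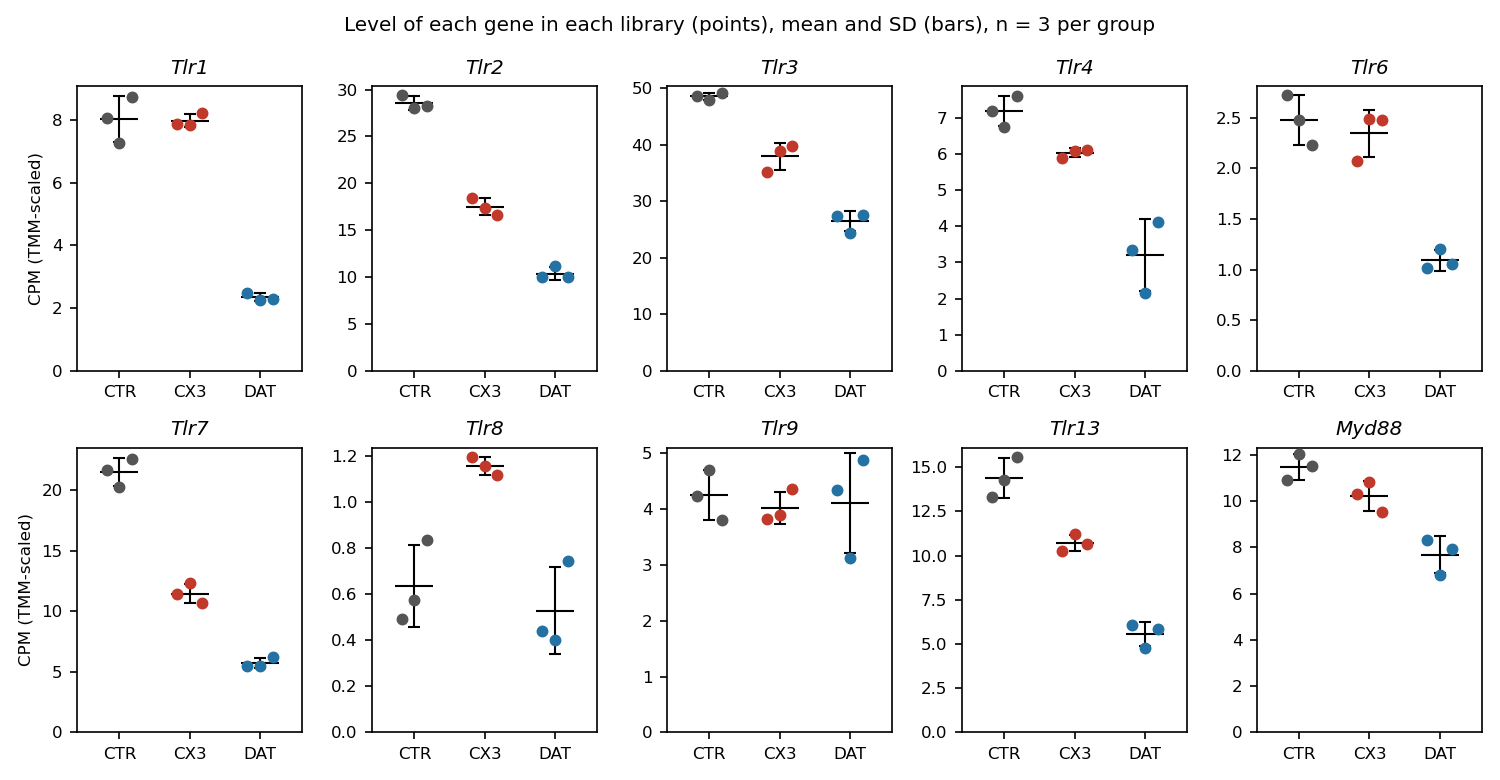
Level of each of the 10 genes in each library, in CPM on a linear axis that starts at 0 and differs between panels. Points are libraries, and bars show the mean and SD of 3 libraries of CTR, CX3 or DAT. Tlr7 fell from a mean of 21.5 CPM in CTR to 11.5 in CX3 and 5.71 in DAT, Tlr8 was highest in CX3 with a mean of 1.16, and Tlr9 lay between 3.12 and 4.87 in all libraries.

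Among the surface receptors, Tlr2 (ENSMUSG00000027995.10, GRCm38 chromosome 3 from 83836272 to 83841767, reverse strand) was the most abundant in CPM. Its level was 29.4, 28.0 and 28.3 CPM in the CTR libraries, 18.4, 17.4 and 16.6 in CX3, and 9.98, 11.2 and 9.96 in DAT. All 3 groups were separate. The fitted log2 fold change from CTR was -0.71 ± 0.06 (SE) in CX3 (adjusted p = 7.5e-07) and -1.47 ± 0.07 in DAT (adjusted p = 1.6e-10). Tlr1 (ENSMUSG00000044827.10, chromosome 5 from 64924679 to 64933563, reverse strand), which pairs with Tlr2, did not follow it in CX3. Its level was 8.08, 7.28 and 8.73 CPM in CTR, 7.87, 7.86 and 8.23 in CX3, and 2.50, 2.26 and 2.28 in DAT. CTR and CX3 overlapped and DAT was far below both. The log2 difference was -0.00 in CX3, with a 95% interval from -0.20 to 0.19 (adjusted p = 0.99), and -1.76 ± 0.11 in DAT (adjusted p = 5.0e-09).

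Tlr6 (ENSMUSG00000051498.6, chromosome 5 from 64952031 to 64960097, reverse strand), the other partner of Tlr2, lies 18.5 kb from Tlr1. Its level was 2.73, 2.47 and 2.23 CPM in CTR, 2.08, 2.48 and 2.47 in CX3, and 1.01, 1.21 and 1.05 in DAT. As with Tlr1, CTR and CX3 overlapped and DAT was lower. The log2 difference was -0.08 in CX3 (95% interval -0.39 to 0.23, adjusted p = 0.71) and -1.20 ± 0.17 in DAT (adjusted p = 3.0e-05). Tlr4 (ENSMUSG00000039005.13, chromosome 4 from 66827584 to 66930284, forward strand), the lipopolysaccharide receptor, had 7.19, 6.76 and 7.60 CPM in CTR, 5.89, 6.09 and 6.12 in CX3, and 3.35, 2.16 and 4.13 in DAT. The groups did not overlap, and DAT B was the lowest library. In CX3 the log2 difference of -0.25 ± 0.13 did not pass the test (adjusted p = 0.17), although it did when CX3 and CTR were fitted without DAT (adjusted p = 0.036) and in forward-strand counts (adjusted p = 0.022). In DAT it was -1.14 ± 0.15 (adjusted p = 1.2e-05).

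Tlr3 (ENSMUSG00000031639.12, chromosome 8 from 45395665 to 45411080, reverse strand), the endosomal receptor of double-stranded RNA, had the highest CPM of the 10 genes in each group. Its level was 48.5, 47.9 and 49.1 CPM in CTR, 35.2, 38.9 and 39.7 in CX3, and 27.4, 24.4 and 27.6 in DAT. The groups were separate, with log2 fold changes of -0.35 ± 0.06 in CX3 (adjusted p = 0.00033) and -0.87 ± 0.06 in DAT (adjusted p = 1.5e-08). Of its exon bases, 7.32% were shared with Gm45542 on the other strand.

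Tlr7 (ENSMUSG00000044583.13, chromosome X from 167304929 to 167330558, reverse strand), a receptor of single-stranded RNA, had the largest fall of the 10 genes in both comparisons with CTR. Its level was 21.7, 20.2 and 22.5 CPM in CTR, 11.4, 12.3 and 10.7 in CX3, and 5.46, 5.48 and 6.19 in DAT. No library overlapped another group. The log2 fold change was -0.91 ± 0.07 in CX3 (adjusted p = 3.4e-07) and -1.91 ± 0.08 in DAT (adjusted p = 9.3e-11). Tlr13 (ENSMUSG00000033777.4, chromosome X from 106143204 to 106160493, forward strand), a receptor of bacterial ribosomal RNA, moved the same way. Its level was 13.3, 14.3 and 15.6 CPM in CTR, 10.3, 11.2 and 10.7 in CX3, and 6.09, 4.78 and 5.84 in DAT. The groups were again separate, with log2 fold changes of -0.42 ± 0.09 in CX3 (adjusted p = 0.0016) and -1.35 ± 0.10 in DAT (adjusted p = 1.8e-08).

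Tlr8 (ENSMUSG00000040522.5, chromosome X from 167242696 to 167264329, reverse strand), the neighbour of Tlr7 at a distance of 40.6 kb, was the least abundant member and the only one higher in CX3 than in CTR. It had 15, 21 and 25 counts in the CTR libraries, 46, 40 and 43 in CX3, and 16, 8 and 17 in DAT. In CPM these were 0.493, 0.577 and 0.833 in CTR, 1.19, 1.16 and 1.12 in CX3, and 0.439, 0.402 and 0.746 in DAT. Every CX3 library lay above every CTR and DAT library, while CTR and DAT overlapped. The log2 fold change was 0.87 ± 0.25 in CX3 (adjusted p = 0.018) and -0.27 ± 0.31 in DAT (adjusted p = 0.46). The call in CX3 rested on few reads. It was lost in DESeq2 (adjusted p = 0.059), in reverse-strand counts (0.32), without CTR A (0.082) and without CTR B (0.075), and with log2 differences of 0.52 to 0.87 it stayed above 0 in these fits.

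Tlr9 (ENSMUSG00000045322.10, chromosome 9 from 106222598 to 106226883, forward strand), the receptor of unmethylated CpG DNA, passed no test. Its level was 4.24, 4.70 and 3.80 CPM in CTR, 3.82, 3.90 and 4.35 in CX3, and 4.33, 3.12 and 4.87 in DAT. All groups overlapped. The 95% interval of the log2 difference from CTR ran from -0.39 to 0.22 in CX3 and from -0.35 to 0.28 in DAT. Myd88 (ENSMUSG00000032508.8, chromosome 9 from 119335934 to 119341411, reverse strand) had 10.9, 12.03 and 11.5 CPM in CTR, 10.3, 10.8 and 9.53 in CX3, and 8.31, 6.79 and 7.94 in DAT. The groups did not overlap. The log2 difference was -0.17 ± 0.08 in CX3 (adjusted p = 0.14) and -0.57 ± 0.09 in DAT (adjusted p = 7.6e-05). Myd88 shares 11.3% of its exon bases with Acaa1a on the other strand, and its level in CTR was 11.5 CPM in counts of both strands together but 16.8 and 15.7 in the forward and reverse counts.

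Counted together, 4 of the 10 genes were called lower (adjusted p under 0.05) and 1 higher in CX3 than in CTR, while 16.5% of all tested genes were called lower and 14.0% higher. With a change of at least 1.5-fold required as well, 2 were lower and 1 higher, against 4.75% and 3.18% of all tested genes. The median log2 difference of the 10 genes was -0.21, against -0.00 over all tested genes. In DAT, 8 of 10 were called lower than in CTR and none higher, against 27.9% lower and 32.0% higher over all tested genes, and 7 were lower by at least 1.5-fold, against 17.2%. Their median log2 difference was -1.17, against -0.00 over all genes. Both comparisons share the CTR libraries. Scaling by library size alone put the median log2 difference of all genes at -0.15 in DAT and 0.04 in CX3 against CTR. It changed the share of higher among all calls from 53.4% to 37.8% and from 46.0% to 59.0%. It changed no member's call and reversed no called change, while differences near 0, such as that of Tlr1 in CX3, can change sign with the scaling.

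**Figure D2:**
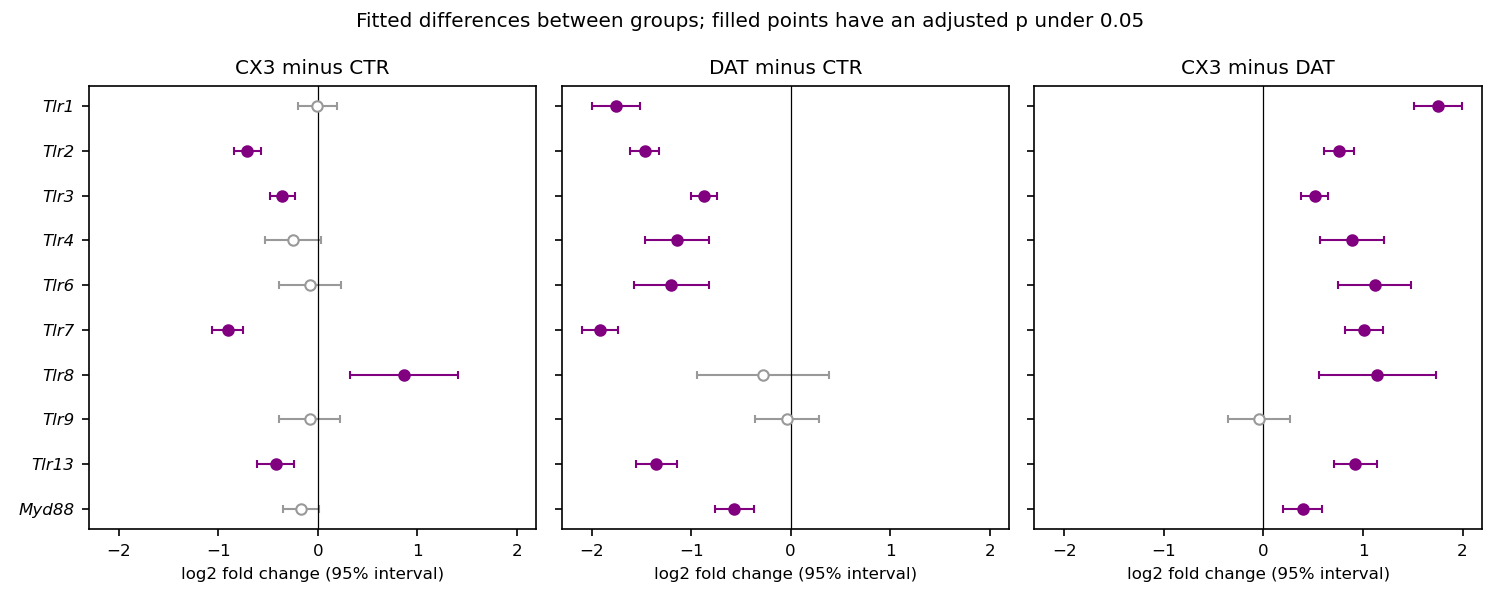
Fitted log2 fold changes of the 10 genes between groups, with 95% intervals (3 libraries per group). Filled points have an adjusted p under 0.05: 5 genes in CX3 minus CTR, 8 in DAT minus CTR and 9 in CX3 minus DAT, where Tlr9 is the exception at -0.05.

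The direct comparison of both Cre lines given the same vector also tests whether the change from CTR differed between them. CX3 was higher than DAT for 9 of the 10 genes, against 27.6% higher and 31.3% lower over all tested genes, and for 7 of them by at least 1.5-fold, against 16.0%. Tlr1 differed most, by 1.75 ± 0.11 on the log2 scale (adjusted p = 4.6e-09). It was followed by Tlr8 with 1.14 ± 0.28 (adjusted p = 0.0024), Tlr6 with 1.12 ± 0.17 (5.5e-05) and Tlr7 with 1.01 ± 0.09 (1.6e-07). Tlr8 did not pass this test in reverse-strand counts (adjusted p = 0.13). The smallest differences called were those of Tlr3, 0.51 ± 0.06 (adjusted p = 4.3e-06), and Myd88, 0.40 ± 0.09 (adjusted p = 0.0016).

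Per kb of exon, the scale on which genes can be set against each other, Tlr2 and Tlr3 led in CTR with 9.48 ± 0.243 and 9.31 ± 0.118 CPM per kb (SD, n = 3), and their libraries overlapped. In CX3 and DAT, Tlr3 stood above Tlr2 without overlap, at 7.28 ± 0.460 against 5.80 ± 0.303 and at 5.08 ± 0.342 against 3.45 ± 0.238 CPM per kb. Tlr7 followed in CTR with 5.26 ± 0.287 CPM per kb, above Myd88 with 4.46 ± 0.219. Myd88 stood above Tlr7 in CX3 (3.96 ± 0.249 against 2.81 ± 0.200) and DAT (2.98 ± 0.308 against 1.40 ± 0.102). The order in CTR depended on the counts used. In forward and reverse counts of CTR, Myd88 had 16.8 and 15.7 CPM over 2.58 kb, and Tlr7 20.4 and 19.6 CPM over 4.08 kb. On those counts Myd88 stood above Tlr7 per kb in CTR as well, so no switch of order between groups can be read from this. Tlr4 and Tlr9 overlapped in CTR and CX3, while Tlr9 stood above Tlr4 in DAT. Tlr6 and Tlr8 were the lowest in every group, with Tlr8 at 0.148 to 0.322 CPM per kb.

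The make-up of the receptors differed between the groups. The summed level of the 9 receptors was 33.1 ± 0.768 CPM per kb in CTR, 24.0 ± 0.485 in CX3 and 14.1 ± 0.782 in DAT. Tlr7 made up 15.9% ± 0.502 of this sum in CTR, 11.7% ± 0.744 in CX3 and 9.91% ± 0.495 in DAT. Tlr9, whose own level did not pass a test, made up 3.69% ± 0.475, 4.83% ± 0.334 and 8.31% ± 1.40. The share of Tlr3 was 28.1% ± 0.300 in CTR, 30.4% ± 1.47 in CX3 and 36.0% ± 0.726 in DAT. That of Tlr1 was 7.23% ± 0.492 in CTR, 9.96% ± 0.319 in CX3 and 4.98% ± 0.319 in DAT. The mean shares of Tlr2 were 28.6%, 24.2% and 24.5%, and those of Tlr13 lay between 9.14% and 10.4%. Within a library, Tlr2 was 3.97 ± 0.345 times as high as Tlr1 in CTR, 2.43 ± 0.181 times in CX3 and 4.93 ± 0.535 times in DAT, with no overlap between groups. Tlr7 was 31.1 ± 7.45 times as high as Tlr8 in CTR, 8.71 ± 0.563 times in CX3 and 10.1 ± 2.46 times in DAT, where CX3 and DAT overlapped. For each ratio the exact two-sided permutation p of CX3 against CTR was 0.1, the smallest that 3 against 3 libraries can give.

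**Figure D3:**
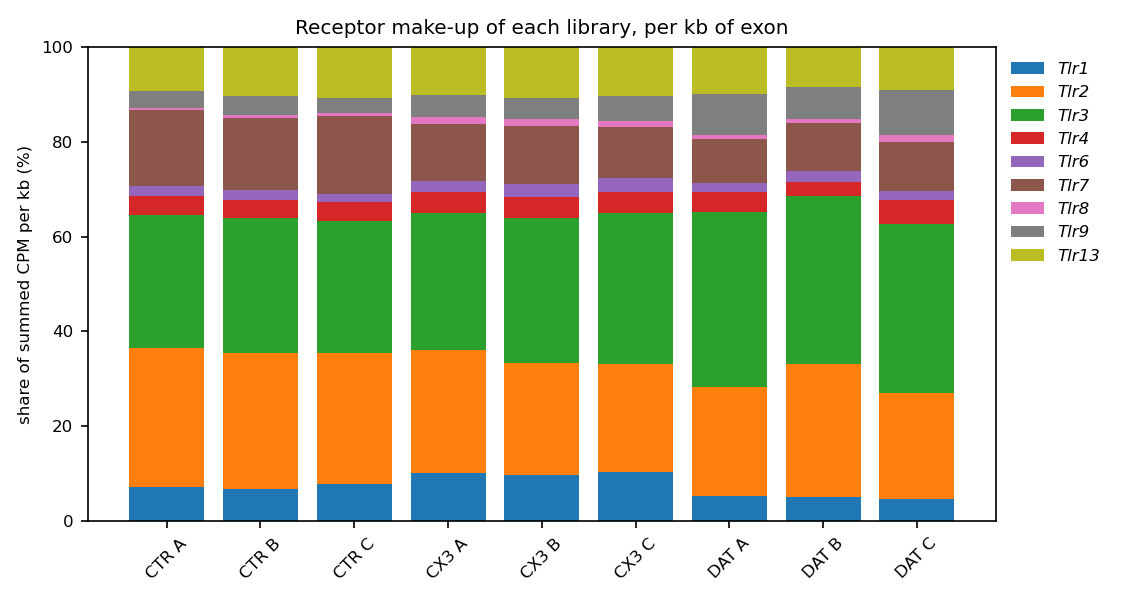
Share of each receptor in the summed CPM per kb of the 9 receptors, in percent, for each of the 9 libraries. Tlr2 and Tlr3 fill more than any other receptor in every library, and the band of Tlr7 narrows from a mean of 15.9% in CTR to 9.91% in DAT while that of Tlr9 widens from 3.69% to 8.31%.

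Promoter windows from 250 bases before to 50 after a RefSeq transcript start were found for 8 of the 10 genes (GRCm38.p6). Such a start can lie inside the gene span given above, as for Tlr3 and Myd88, whose windows fall wholly within it. They were searched on both strands for GAGGAAG, a core bound by the myeloid factor PU.1, for an NF-kappaB form (GGG, any 3 bases, TTCC) and for an interferon-stimulated response element (GAAA, any 2 bases, GAAA), which occurred in 13.6%, 5.56% and 3.44% of 32851 promoter windows of this length. Of the 4 genes that fell in both comparisons, Tlr2, Tlr3 and Tlr13 had a window, and these are shown with that of Tlr8, which moved the other way in CX3. Capitals mark the matches, all sequences run in the direction of the gene, and the windows are chr3:83841559-83841858 (Tlr2, reverse strand), chr8:45410331-45410630 (Tlr3, reverse strand), chrX:106143025-106143324 (Tlr13, forward strand) and chrX:167264280-167264579 (Tlr8, reverse strand).
Tlr2: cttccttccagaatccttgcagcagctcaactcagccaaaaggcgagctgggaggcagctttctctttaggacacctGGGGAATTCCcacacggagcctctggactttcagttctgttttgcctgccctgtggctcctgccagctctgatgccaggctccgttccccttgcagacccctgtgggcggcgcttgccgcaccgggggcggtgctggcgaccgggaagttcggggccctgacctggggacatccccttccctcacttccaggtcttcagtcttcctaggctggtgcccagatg
Tlr3: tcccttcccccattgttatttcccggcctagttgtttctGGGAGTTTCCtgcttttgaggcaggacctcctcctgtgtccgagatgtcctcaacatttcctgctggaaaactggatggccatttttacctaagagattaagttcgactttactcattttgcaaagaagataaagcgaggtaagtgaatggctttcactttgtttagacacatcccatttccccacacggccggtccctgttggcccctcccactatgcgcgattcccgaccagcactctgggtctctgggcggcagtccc
Tlr13: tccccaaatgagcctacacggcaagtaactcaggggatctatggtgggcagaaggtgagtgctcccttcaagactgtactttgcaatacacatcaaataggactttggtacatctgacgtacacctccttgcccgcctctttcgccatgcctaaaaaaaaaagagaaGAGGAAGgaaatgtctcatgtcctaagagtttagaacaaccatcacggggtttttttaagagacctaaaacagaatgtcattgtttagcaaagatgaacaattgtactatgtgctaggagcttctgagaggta
Tlr8: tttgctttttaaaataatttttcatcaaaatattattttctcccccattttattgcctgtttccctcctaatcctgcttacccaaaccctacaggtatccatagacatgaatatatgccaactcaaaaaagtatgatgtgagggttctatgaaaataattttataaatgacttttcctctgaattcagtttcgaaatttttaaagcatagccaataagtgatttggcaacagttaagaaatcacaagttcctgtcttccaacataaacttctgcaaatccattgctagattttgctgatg

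The windows of Tlr2 and Tlr3 each held the NF-kappaB form, 173 and 211 bases before the RefSeq start. That of Tlr13 held the PU.1 core 83 bases before its RefSeq start. Tlr8 held none of the 3 motifs in this window. Among the others, Tlr1 and Tlr9 held the PU.1 core, Tlr6 the NF-kappaB form in 1 window and the response element in another, and Myd88 the response element. A match describes letters only and is not a site of binding.

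Of 51 other genes of the pathway, 16 were called lower and 11 higher in CX3 than in CTR, and 33 were lower and 11 higher in DAT. The shares of all tested genes, against which these and the following counts are to be read, were 16.5% lower and 14.0% higher in CX3 and 27.9% lower and 32.0% higher in DAT. The genes listed under receptor trafficking moved most evenly in CX3. All 6 were lower, none by 1.5-fold, with a median log2 difference of -0.39. Among them, Hsp90b1, a chaperone of Toll-like receptors, fell from 406 ± 7.01 to 292 ± 6.24 CPM (log2 -0.47, adjusted p = 3.4e-06). Ap3b1, an adaptor protein subunit of vesicle transport, and Slc15a4, a lysosomal transporter, fell by 0.45 and 0.42 on the log2 scale (adjusted p = 0.00028 and 8.3e-05). In DAT 3 of these 6 were lower and 1 higher.

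The 3 Toll-like receptor genes outside the 10 had mean levels of 0.462 (Tlr11), 0.591 (Tlr5) and 3.69 CPM (Tlr12) in CTR. Tlr11 and Tlr12, receptors of a protozoan protein, were higher in CX3 than in CTR, by 1.30 ± 0.34 and 0.40 ± 0.13 on the log2 scale (adjusted p = 0.0095 and 0.027), and lower in DAT, while Tlr5, the flagellin receptor, passed only in DAT, by 0.68 ± 0.27 (adjusted p = 0.039). The calls of Tlr11 and Tlr5 rested on few reads. Tlr11 had 12, 24 and 10 counts in the CTR libraries, 42, 37 and 51 in CX3, and 9, 0 and 4 in DAT. Tlr5 had 21, 14 and 21 counts in CTR and 34, 18 and 22 in DAT. Among 6 accessory proteins, Cd14, which hands lipopolysaccharide to Tlr4, was lower in CX3 by a log2 difference of -0.61 ± 0.10 (adjusted p = 0.00039). Cd36, a scavenger receptor that assists Tlr2, rose by 1.73 ± 0.11 (adjusted p = 2.1e-08), and Cd180, a receptor related to Tlr4, by 0.42 ± 0.07 (adjusted p = 0.00045). Lbp, the lipopolysaccharide binding protein gene, was also higher.

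Downstream genes are given for CX3 against CTR first. Of 14 kinases, ligases and their partners, 3 were higher and 2 lower, none by 1.5-fold, which is near the shares of all tested genes (14.0% and 16.5%). Traf3, a ligase of the interferon branch, was higher by 0.32 ± 0.06 (adjusted p = 0.00079). Of 5 other adaptors, Ticam1, the adaptor of Tlr3, and Pik3ap1, an adaptor of phosphoinositide 3-kinase, were lower by log2 differences of -0.45 ± 0.10 (adjusted p = 0.0031) and -0.39 ± 0.06 (adjusted p = 0.00019). Of 7 transcription factors, Irf7, the interferon regulatory factor downstream of Tlr7 and Tlr9, fell from 72.8 ± 1.66 to 42.6 ± 1.71 CPM (log2 -0.77, adjusted p = 1.4e-07), and Irf3 was also lower. Of 6 inhibitors, Nfkbia, which holds NF-kappaB in the cytoplasm, was lower by -0.94 ± 0.07 (adjusted p = 1.4e-07), and Socs1, a suppressor of cytokine signalling, was higher by 1.35 ± 0.11 (adjusted p = 3.6e-07). Of 4 receptors of IL-1 and IL-18, which share Myd88, Il18rap was higher by 1.34 ± 0.16 (adjusted p = 2.0e-05) and Il1rap lower by -0.16 ± 0.05 (adjusted p = 0.032). In DAT all 4 of these receptors were lower than in CTR. Of the 14 kinases, ligases and partners, 8 were lower and 5 higher in DAT, and of the 5 adaptors 3 were lower and 1 higher. Of the 7 transcription factors 4 were lower and 1 higher, and of the 6 inhibitors 4 were lower and 1 higher. The shares of all tested genes in DAT were 27.9% lower and 32.0% higher.

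**Figure D4:**
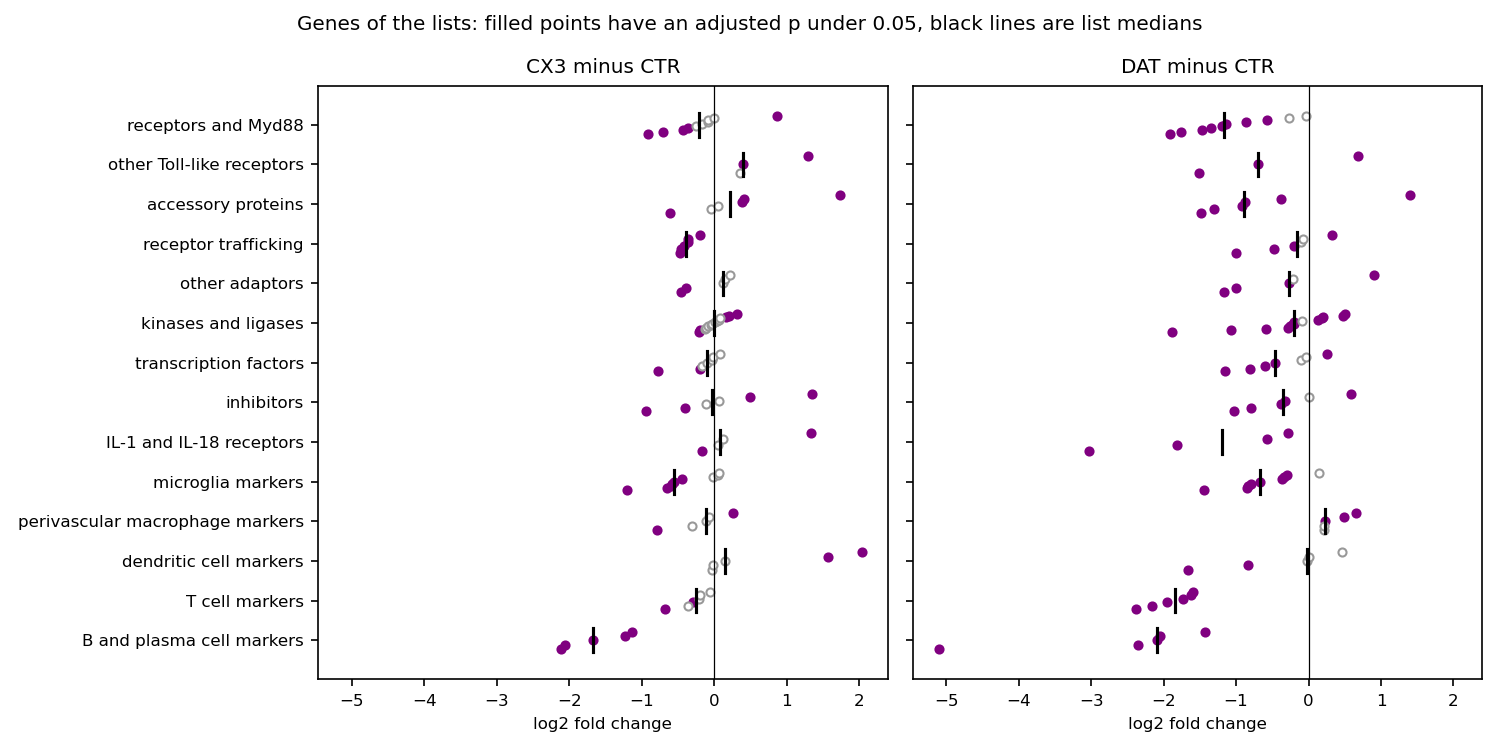
Log2 fold changes of the genes of each list, in CX3 (left) and DAT (right) against CTR, 3 libraries per group. Each point is a gene, filled where the adjusted p is under 0.05, and black lines are list medians, such as -0.21 and -1.17 for the receptors and Myd88 and -0.55 and -0.66 for microglia markers.

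Markers of the cells that could carry these receptors moved with the groups. In bulk tissue, fewer cells of a type and less RNA per cell cannot be told apart. The 9 microglia markers summed to 589 to 592 CPM in CTR, 408 to 414 in CX3 and 421 to 436 in DAT, with 6 of 9 called lower in CX3 and 8 of 9 in DAT, against 16.5% and 27.9% of all tested genes. Csf1r, Cx3cr1 and Tmem119 were the most abundant of them, and Cx3cr1, the gene that carries Cre in CTR and CX3, had 102 ± 0.900 CPM in CTR, 44.6 ± 0.894 in CX3 and 83.4 ± 4.31 in DAT. The summed level of the microglia markers was lower in CX3 than in DAT without overlap, while that of the 10 genes was higher. The order of the microglia sums rested on Cx3cr1, since the other markers without it summed higher in CX3 than in DAT. Of the markers, 4 were called higher and 2 lower in CX3 than in DAT, against 27.6% and 31.3% of all tested genes. The median log2 difference of the list, CX3 minus DAT, was 0.22.

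Other cell types moved as well. The B and plasma cell markers summed to 303 to 322 CPM in CTR, 73.0 to 77.8 in CX3 and 10.7 to 13.9 in DAT, of which Jchain was most. T cell markers summed to 50.6 to 52.9, 43.4 to 45.3 and 12.2 to 14.3 CPM. Those of monocytes and neutrophils summed to 52.6 to 52.9, 30.7 to 31.2 and 6.97 to 7.54 CPM. Most of this sum in CTR was Ly6c2, which fell from 39.2 to 8.70 CPM in CX3, while Ccr2 rose from 3.79 to 9.72. Of the 6 tested markers of this list, 2 were called higher and 3 lower in CX3 than in CTR, against 14.0% and 16.5% of all tested genes. Those of dendritic cells summed to 28.7 to 30.1, 33.4 to 35.0 and 27.1 to 29.7 CPM. Most of this sum was Flt3, at 19.3 CPM in CTR, 19.0 in CX3 and 19.1 in DAT. In the same order, Xcr1 was at 0.775, 3.16 and 0.220 CPM and Clec9a at 1.11, 3.31 and 0.627. Of the 5 dendritic markers, 2 were called higher and 0 lower in CX3 than in CTR, against 14.0% and 16.5% of all tested genes. In DAT 2 were lower and 0 higher, against 27.9% and 32.0%. Perivascular macrophage markers summed to 24.6 to 25.8, 25.2 to 27.2 and 32.4 to 34.1 CPM. Astrocyte markers, of cells that also express Tlr3, summed to 4213 to 4245 CPM in CTR, 2268 to 2374 in CX3 and 2413 to 2487 in DAT. Gfap and Aqp4 were most of this sum. All 5 were called lower in CX3 and 3 of 5 in DAT, against 16.5% and 27.9% of all tested genes. The list medians were -0.63 and -0.15 on the log2 scale, and Slc1a3 was at 439 CPM in CTR, 284 in CX3 and 427 in DAT. Choroid plexus markers, mostly Ttr, were at 33.2 to 35.8, 1464 to 1574 and 865 to 1036 CPM. Pituitary markers were at 61.1 to 63.8, 5.89 to 6.10 and 18.3 to 23.5 CPM. Gh fell from 34.7 ± 1.10 CPM in CTR to 0.217 ± 0.123 in CX3 and 0.103 ± 0.0604 in DAT. Most of the sum in DAT was Pomc, at 17.9 CPM in CTR, 2.73 in CX3 and 17.2 in DAT. The part of these differences in tissue make-up in the receptor values was not tested.

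The genes whose pattern over the 9 libraries was nearest to that of a member, by the root mean square difference of centred log2 levels, are given as a description, since the libraries fall into 3 tight groups and share their scaling. Nearest to Tlr2 were Trem2, Ifitm3 and Oasl2, with root mean square differences of 0.0614 to 0.0923 log2 units. For Tlr7 they were Slfn1, Cd68 and Trim30d (0.109 to 0.115), for Tlr13 Nckap1l, Lcp1 and Pik3cg (0.0664 to 0.0745), and for Tlr1 Spn, Gm12940 and Apobec3 (0.0684 to 0.0749). Those of Myd88 were Irak4, which encodes the kinase it recruits, Dio2 and Abcc5 (0.0642 to 0.0674). Nearest to Tlr3 were Prpf4b, C230004F18Rik and Ints13 (0.0354 to 0.0522), to Tlr4 Gm33869, Parvg and Dnah7b (0.0871 to 0.125), and to Tlr6 Cep70, Stk17b and Ccdc191 (0.0767 to 0.0845). Tlr8 had Mboat1, Coro6 and Slco1a4 (0.121 to 0.143) and Tlr9 Elovl2, Zfp568 and Syt14 (0.0581 to 0.0756). Such likeness is common here: the number of genes with a Pearson correlation over 0.95 across the 9 libraries was 0 for Tlr9, 2 for Tlr8, and 72 (Myd88) to 668 (Tlr1) for the others.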

How the data were processed

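Bulk RNA of nigral tissue was measured in 9 libraries, grouped by the genotype in their labels. The deposited values are raw read counts of genes, made by the authors with Trimmomatic and STAR on mm10, and were not normalized. The layout is that of STAR's own gene counts, although featureCounts is named too, and versions are not given in the sources used here. All gene identifiers matched GENCODE M21 (GRCm38). The insert of the vector under study and 1 gene of the microglia marker list are not reported here, and the list was used without that gene.

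Counts of both strands together were fitted for all 9 libraries with edgeR 4.0.16 (TMM scaling, filterByExpr, robust quasi-likelihood test) in R 4.3.3, and p-values were adjusted by Benjamini-Hochberg over 20892 genes. A gene was called at an adjusted p under 0.05, and a second rule added a change of 1.5-fold. Reads not counted on genes were 30.5% to 35.9% of a library and entered no library size. CPM were averaged over 3 libraries (mean ± SD), lengths are merged exons, and patterns were compared on log2(CPM + 0.5) among genes with a mean of at least 5 CPM. Alternatives used other scaling, filters, strands, DESeq2 1.42.0, the 2 groups compared alone, a replicate block and leaving out each library. Python 3.11.15 was used for the rest. The members and lists were chosen with earlier results of these data known. Named genes are all members, at most 3 of each pathway list with the largest called change in CX3 against CTR, at most 3 of each marker list with the highest level, and the 3 nearest in pattern. Other genes named, and the motifs and windows shown, were chosen after values were seen.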

Additional observations from a re-analysis of the deposited data

Results flagged for a closer look

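For 9 of the 10 genes the change from CTR differed between CX3 and DAT, tested as the difference between CX3 and DAT in edgeR's quasi-likelihood fit (adjusted p under 0.05, 3 libraries per group). The log2 differences, CX3 minus DAT, were 1.75 for Tlr1, 0.76 for Tlr2, 0.51 for Tlr3, 0.89 for Tlr4, 1.12 for Tlr6, 1.01 for Tlr7, 1.14 for Tlr8, 0.92 for Tlr13 and 0.40 for Myd88. Cre line and tamoxifen differ together between these groups and cannot be told apart.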

How the results depend on the processing

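No member's direction reversed under any alternative among its called changes, and over all alternatives the members called numbered 7 to 8 lower in DAT against CTR and 7 to 9 higher in CX3 against DAT, each lowest in the test of changes above 1.5-fold. In CX3 against CTR, 5 members were lower with only the 2 groups fitted and in forward-strand counts, where Tlr4 was added. In CX3 against CTR the 1 member called higher, Tlr8, became 0 in DESeq2, in reverse-strand counts, with at least 10 counts required in every library, where Tlr8 was not tested, and in a test of changes above 1.5-fold. It ranged from 0 to 1 when a library was left out, with 0 without CTR A or CTR B. In the test of changes above 1.5-fold the members called lower fell from 4 to 1, and the genes called were 532 in CX3 and 3760 in DAT against CTR and 3759 in CX3 against DAT. Pathway genes called there were 3 higher and 2 lower, 2 higher and 14 lower, and 12 higher and 2 lower in the same order. Pathway genes lower in CX3 than in CTR numbered 10 when genes with at least 1 count were tested, and those higher 7 in reverse-strand counts. Pathway genes higher in DAT than in CTR numbered 6 with library size alone and in forward-strand counts and 7 in reverse-strand counts. Those lower in CX3 than in DAT numbered 5 with library size alone and 7 in reverse-strand counts. Library size alone gave 66.8% higher calls in CX3 against DAT, against 46.8%, with the median of all genes at 0.20. The cause was not tested.

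The letters A to C were not taken to pair the libraries. Same-letter correlations of deviations from group means ran from -0.45 to 0.26, and those of different letters from -0.44 to 0.53. Deviations of 3 libraries from their own mean depend on each other, so this check cannot decide whether the letters pair. With a replicate block 5849, 12147 and 11965 genes were called in CX3 against CTR, DAT against CTR and CX3 against DAT, and no count of members changed. Tlr8 rests on 8 to 46 counts per library.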
